A study of Homo sapiens with 12 samples.

Results

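The effect of exogenous MEIS1 was examined in CWR22Rv1 cells carrying the HOXB13 knockout label. The 3 libraries labelled HOXB13ko-LV-MEIS1 were compared with the 3 labelled HOXB13ko, which are 6 of the 12 libraries measured. All genes listed by symbol were used. After 42 exact repeats among 13993 lines were left out, 13951 genes entered the comparison. The comparison asks whether MEIS1 alters expression when HOXB13 has been targeted, how small a shared shift can be seen with 3 libraries a group, and how large a change the intervals still allow.

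CWR22Rv1 is an established human prostate carcinoma line, derived from the CWR22 xenograft after castration and relapse. RNA-seq was done on its poly-A RNA after 48 h of culture. HOXB13ko cells carry a Cas9 and puromycin resistance transposon, received a HOXB13 guide RNA, and are a pool put together again from clonal knockout lines. HOXB13ko-LV-MEIS1 cells are that pool with MEIS1 added from the pReceiver-LV105 lentivirus, which also carries puromycin resistance, so selection could not tell infected from uninfected cells. Control cells have Cas9 without a guide RNA, and LV-MEIS1 cells are CWR22Rv1 with the same MEIS1 lentivirus. All lines were grown with puromycin. An HOXB13ko line with an empty lentivirus was not analysed here, so lentiviral infection and MEIS1 cannot be told apart. The same holds for LV-MEIS1 and Control, and no Cas9 is described for LV-MEIS1. A MEIS1 effect therefore means the difference between the lines of a pair. Replicates are cultures of 1 pool per group, and p-values therefore measure only the spread between such cultures.

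MEIS1 belongs to the TALE homeodomain transcription factors, which bind DNA together with PBX proteins and with HOX proteins. HOXB13 is the HOX protein typical of prostate epithelium. MEIS proteins can steer HOX proteins to their sites, and HOX proteins can in turn steer MEIS proteins.

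The HOXB13 guide is shown because it defines the knockout label shared by both groups. It matched GRCh38 once on chromosome 17 next to a PAM, at chr17:48728454-48728476 on the plus strand with the PAM included. The site lies in the coding part of exon 1 of 2 of HOXB13 (chr17:48724763-48728750, minus strand), 123 coding bases after the start of the reading frame. The guide is written 5′ to 3′ and the capitals mark the PAM, which was read from the genome.
HOXB13 guide: ttgacagcaggcatcagcgtAGG

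Values are CPM, the reads of a gene scaled to a common library size. HOXB13 mRNA was not lost in either group. It had 347, 326 and 307 CPM in the libraries labelled HOXB13ko and 326, 361 and 375 CPM in the HOXB13ko-LV-MEIS1 libraries, so the groups overlapped. Both groups lay above the Control mean of 196 CPM, and for this reason the groups are named here by their labels. The level of an mRNA does not show whether its reading frame is intact. The paper reports that the knockout was verified by western blot in each clonal line before pooling. It also shows blots for the HOXB13ko and HOXB13ko-LV-MEIS1 lines.

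The 6 libraries were close to each other. Correlations of log2 values across genes ran from 0.992 to 0.995 within a group and from 0.9895 to 0.994 between the groups. The listed CPM summed to between 952958 and 992328 per library. Steps between low values gave an estimated depth of 18100000 to 28700000 reads, at which 3 reads equal 0.105 to 0.166 CPM. All 12 luminal prostate markers in a list of such genes were listed, among them KLK3 and KRT8, with a summed level of 4225 to 4306 CPM in HOXB13ko and 4227 to 4517 CPM in HOXB13ko-LV-MEIS1. Of the 7 basal markers 2 were listed, ITGA6 and DST, while KRT5, KRT14 and TP63 were not. Of the 12 stromal markers 5 were listed, COL1A1 and PDGFRB among them. Their summed level was 74.9 to 81.8 CPM in HOXB13ko and 76.3 to 90.2 CPM in HOXB13ko-LV-MEIS1. Of the 10 immune markers 1 was listed, and 0 of 7 endothelial markers were listed.

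Very few genes passed the tests beyond MEIS1 itself. Tests were made in limma on log2(CPM + 0.5), and fold changes refer to that scale, on which low genes appear to differ by less. A gene was called by treat when its change exceeded 1.5-fold at a Benjamini-Hochberg adjusted p under 0.05, and 1 gene was called (0.00717% of 13951). A second call, eBayes, tested against no change at all, and 7 genes passed it (0.0502%). Of these MEIS1, SYT4 and TMX4 rose and ALB, TENM2, AFAP1-AS1 and C1QTNF3-AMACR fell.

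MEIS1 (ENSG00000143995, chr2:66433452-66573869) had 3.65, 3.59 and 3.42 CPM in HOXB13ko and 30.1, 29.8 and 29.3 CPM in HOXB13ko-LV-MEIS1. Every library with the lentivirus stood far above every library without it, and the 3 values within each group were close together. MEIS1 thus rose 7.46-fold, with a 95% interval of 6.68 to 8.33 (limma treat adjusted p = 9.6e-11). The coding sequence of the lentivirus and the endogenous gene were not told apart in gene-level CPM. Against Control, LV-MEIS1 libraries reached 47.4 CPM (mean), and the log2 fold change of MEIS1 in the HOXB13ko lines was lower than in that pair by 0.44 ± 0.11 (SE, limma eBayes adjusted p = 0.0063, treat adjusted p = 1).

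TMX4 encodes a thioredoxin-related membrane protein of the endoplasmic reticulum. It had 88.9, 90.1 and 85.0 CPM in HOXB13ko and 116.45, 109.3 and 116.8 CPM in HOXB13ko-LV-MEIS1. The groups did not overlap. It rose 1.296-fold, with a 95% interval of 1.21 to 1.39 (limma eBayes adjusted p = 0.0061). The adjusted p was 0.0521 without HOXB13ko replicate 3 and 0.0643 without HOXB13ko-LV-MEIS1 replicate 3. In LV-MEIS1 against Control its log2 fold change was -0.06 ± 0.05 (SE), and the effects differed between the line pairs by 0.44 ± 0.07 (limma eBayes adjusted p = 2.9e-04, treat adjusted p = 1).

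SYT4 encodes a synaptotagmin, a membrane protein of secretory vesicles. Its level was 192, 193 and 194 CPM in HOXB13ko and 240.5, 249.8 and 243 CPM in HOXB13ko-LV-MEIS1. Spread within a group was small and the groups did not overlap. The rise was 1.27-fold, with a 95% interval of 1.17 to 1.37 (limma eBayes adjusted p = 0.0456), and the adjusted p ran from 0.0582 to 0.26 when any 1 of the 6 libraries was left out. SYT4 went the other way in LV-MEIS1 against Control, with a log2 fold change of -1.05 ± 0.06, and the difference of the effects was 1.38 ± 0.08 (SE, limma treat adjusted p = 5.6e-06).

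ALB encodes serum albumin, which is made mainly by hepatocytes. It had 47.7, 45.5 and 43.9 CPM in HOXB13ko and 26.9, 26.3 and 29.4 CPM in HOXB13ko-LV-MEIS1. The lowest HOXB13ko library lay well above the highest HOXB13ko-LV-MEIS1 library. ALB fell to 0.606 of its level, with a 95% interval of 0.543 to 0.677 (limma eBayes adjusted p = 7.1e-04), and it passed with each library left out. It also fell in LV-MEIS1 against Control, where the log2 fold change was -1.50 ± 0.07 against -0.72 ± 0.07 here (SE), and the effects differed by 0.78 ± 0.10 (limma eBayes adjusted p = 7.3e-05, treat adjusted p = 0.705).

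TENM2 encodes a teneurin, a transmembrane adhesion protein that binds latrophilin receptors. Its level was 7.80, 6.80 and 6.06 CPM in HOXB13ko and 3.87, 3.85 and 3.75 CPM in HOXB13ko-LV-MEIS1. The lower group was nearly uniform. TENM2 fell to 0.588 of its level, with a 95% interval of 0.497 to 0.695 (limma eBayes adjusted p = 0.0217). It passed without HOXB13ko replicate 3 (adjusted p = 0.0252), and leaving out any 1 of the other 5 libraries gave 0.0582 to 0.112. Its log2 fold change in LV-MEIS1 against Control was -1.77 ± 0.11, against -0.77 ± 0.11 here (SE), a difference of 1.00 ± 0.16 (limma eBayes adjusted p = 3.2e-04, treat adjusted p = 0.231). TENM2 has a transcript of 10356 nt, and its adjusted p here was 0.0667 with the trend of each library with length and GC content removed and 0.0790 with level removed too.

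AFAP1-AS1, a long non-coding RNA antisense to AFAP1, was low in both groups. It had 2.45, 1.67 and 1.74 CPM in HOXB13ko and 0.656, 0.391 and 0.721 CPM in HOXB13ko-LV-MEIS1, without overlap. It fell by 1.17 ± 0.19 on the log2 scale (SE, limma eBayes adjusted p = 0.0403), and the adjusted p ran from 0.0582 to 0.13 when any 1 library was left out. AFAP1, whose gene overlaps it on the opposite strand, had a log2 fold change of 0.04 ± 0.07, and the summed CPM of the pair overlapped between groups. A strand setting was not given for the read assignment, so reads of an overlapping antisense pair may have been divided between both genes.

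C1QTNF3-AMACR is a readthrough transcript that shares exons with AMACR, a racemase of branched fatty acid oxidation. It had 4.98, 1.91 and 2.64 CPM in HOXB13ko and 0.105, 0 and 0 CPM in HOXB13ko-LV-MEIS1, where all values were below that of 3 reads, so no fold change is given. Its limma eBayes adjusted p was 0.0061. AMACR itself had 5.90, 8.48 and 9.00 CPM in HOXB13ko and 10.9, 10.3 and 11.1 CPM in HOXB13ko-LV-MEIS1. Summed over AMACR, C1QTNF3 and the readthrough, the level was 11.7, 12.4 and 13.2 CPM against 12.6, 12.2 and 12.5 CPM. The sum overlapped between groups, with a log2 difference of -0.0022.

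**Figure D1:**
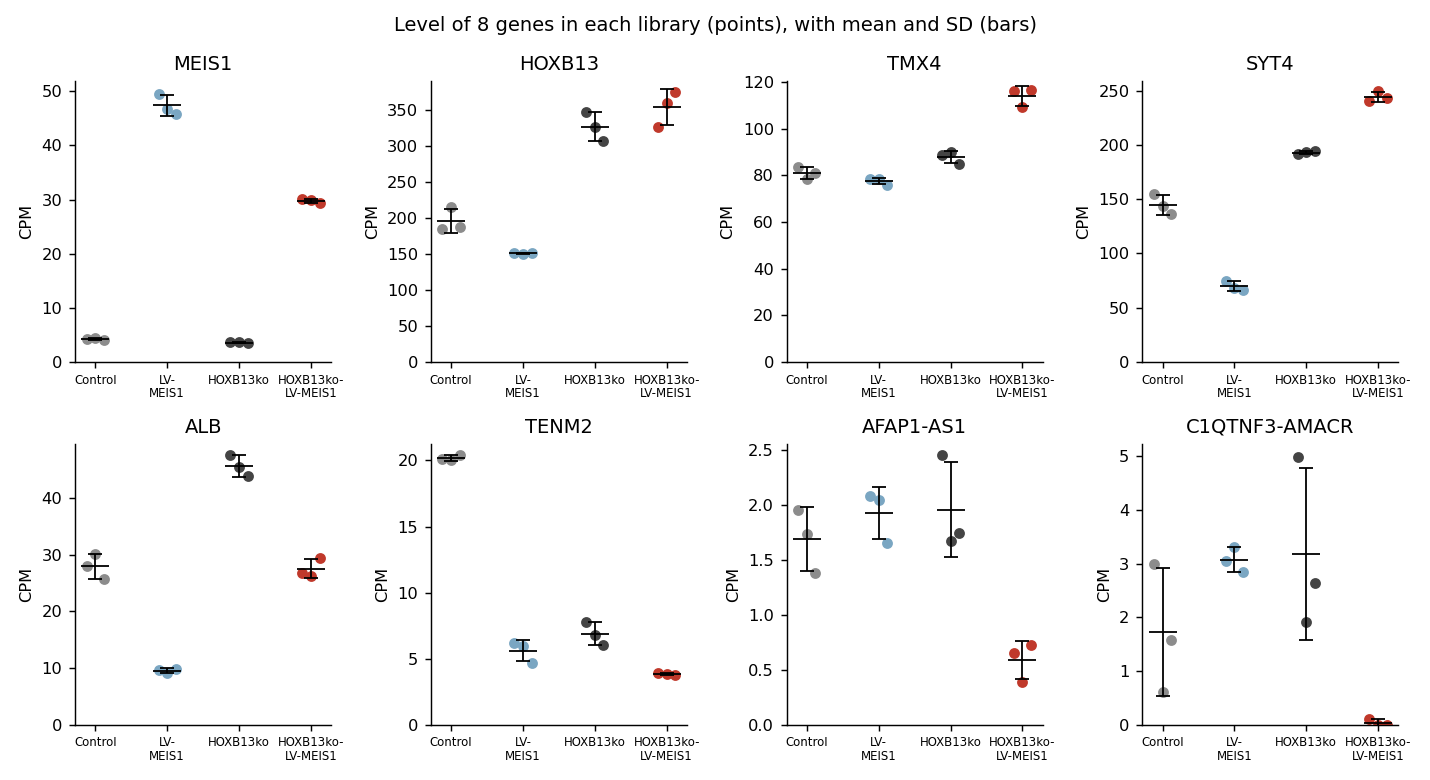
CPM of MEIS1, HOXB13 and the other 6 genes that passed eBayes in the 12 libraries, with 1 point per library and bars for the mean and SD of the 3 libraries of each group. The 3 HOXB13ko-LV-MEIS1 points of SYT4 and TMX4 lie above all HOXB13ko points, those of ALB, TENM2, AFAP1-AS1 and C1QTNF3-AMACR lie below them, and HOXB13 overlaps.

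Genes just short of the eBayes threshold included several with clear separation of the libraries. At an adjusted p under 0.1, 44 genes were found, 9 higher and 35 lower. BMP2, a secreted ligand of the TGF-beta superfamily, had 49.7, 50.8 and 45.2 CPM in HOXB13ko and 64.9, 62.2 and 67.1 CPM in HOXB13ko-LV-MEIS1 (1.33-fold, 95% interval 1.198 to 1.48, limma eBayes adjusted p = 0.0559). PPP1R1B, an inhibitor of protein phosphatase 1, had 7.58, 6.87 and 7.27 CPM against 10.4, 12.6 and 11.2 CPM (1.54-fold, 1.32 to 1.80, adjusted p = 0.0559). Neither gene overlapped between the groups and neither passed the threshold.

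NRP1, a co-receptor for semaphorins and VEGF, had 19.4, 20.3 and 21.9 CPM in HOXB13ko and 27.1, 27.0 and 26.6 CPM in HOXB13ko-LV-MEIS1 (1.304-fold, 95% interval 1.17 to 1.45, limma eBayes adjusted p = 0.0817). Its log2 fold change of 0.38 ± 0.07 here was smaller than the 1.84 ± 0.07 in LV-MEIS1 against Control, a difference of -1.45 ± 0.10 (SE, treat adjusted p = 3.3e-05). MAP1B, a microtubule-associated protein best known from neurons, had 134, 153 and 157 CPM against 111, 97.8 and 98.6 CPM (0.691-fold, 0.597 to 0.801, adjusted p = 0.0817). MAP1B has a transcript of 11790 nt, a length class whose median was lower as well, as given with the length values.

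DDC, which encodes dopa decarboxylase, had 8.47, 8.33 and 8.83 CPM in HOXB13ko and 12.2, 11.8 and 10.7 CPM in HOXB13ko-LV-MEIS1. The groups did not overlap, and the change of 1.33-fold (95% interval 1.13 to 1.58) did not pass (limma eBayes adjusted p = 0.151). In LV-MEIS1 against Control its log2 fold change was -1.64 ± 0.11, and the difference of the effects, 2.06 ± 0.16 (SE), passed treat (adjusted p = 1.6e-05). Among other genes of at least 5 CPM with large estimates and no overlap, AQP4, a water channel, reached 1.42-fold (95% interval 1.08 to 1.86), MAML1, a coactivator of Notch signalling, 1.37-fold (1.11 to 1.69), and LHX4, a LIM homeodomain factor, 0.586-fold (0.463 to 0.742), and none of them passed eBayes.

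Large estimates were rare. In all, 136 genes had an estimated change over 1.5-fold, and 58 of them had a mean of at least 5 CPM, of 11447 genes at that level. The groups did not overlap for 33 of the 58. Of the 11447 genes, 1400 were higher and 1111 lower without overlap. The 58 were picked by their estimates in the same libraries, which makes a lack of overlap likelier. The most extreme estimates at this level apart from MEIS1 were LPAR4 (-4.17 ± 2.06, log2 and SE) and RING1 (2.81 ± 1.48), whose libraries lay far apart within a group and which did not pass eBayes. Some belong to families of near-identical copies, between which reads cannot be divided with certainty. TBC1D3K had 22.3, 18.1 and 17.02 CPM in HOXB13ko and 10.1, 9.34 and 10.0 CPM in HOXB13ko-LV-MEIS1, a log2 fold change of -0.92 ± 0.18 (SE), and the sum over the 4 listed TBC1D3 genes differed by -0.36. CBSL had a log2 fold change of -1.02 ± 0.45, and the sum with its copy CBS, which encodes cystathionine beta-synthase, overlapped between groups.

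**Figure D2:**
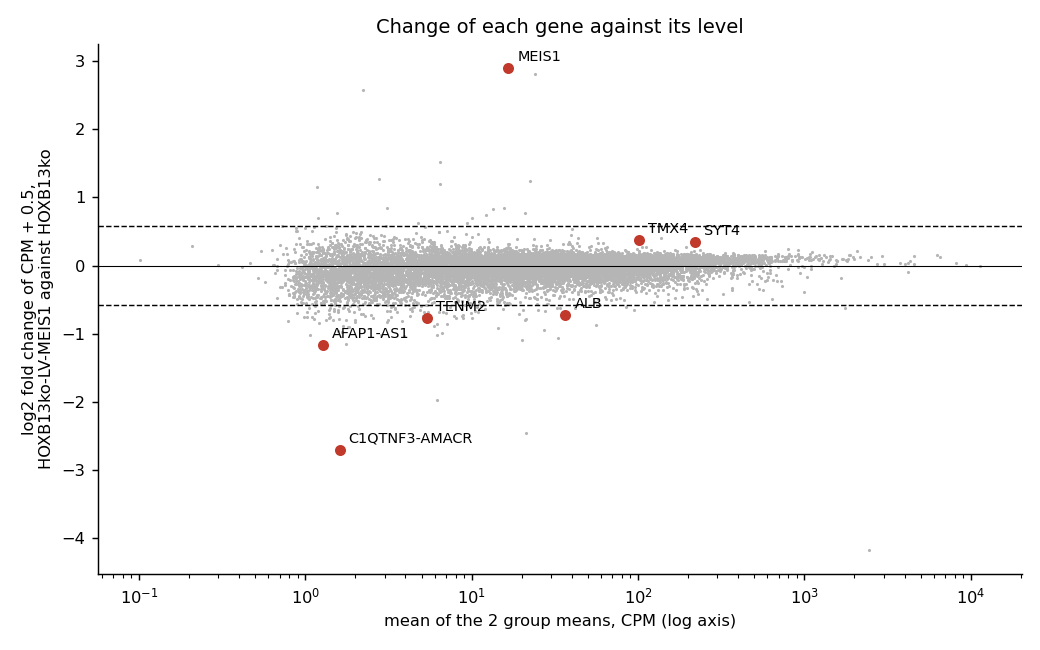
Log2 fold change of CPM + 0.5 in HOXB13ko-LV-MEIS1 against HOXB13ko for 13951 genes, against the mean of both group means in CPM (log axis). Red points are the 7 genes that passed eBayes and dashed lines mark 1.5-fold in each direction. MEIS1 lies at 2.90, the scatter narrows as the level rises, and far grey points such as LPAR4 at -4.17 are genes whose libraries differed within a group.

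The intervals show how large a change the data still allow. For 88.1% of the 13951 genes, the whole 95% interval of the fold change lay within 1.5-fold in either direction, for 62.0% within 0.32 on the log2 scale, and for 98.3% within 2-fold. The intervals are for 1 gene at a time and are not widened for the number of genes. For the remaining 1662 genes, MEIS1, ALB and TENM2 among them, the interval reached beyond 1.5-fold and so allows a change of that size, and for 233 genes it reached beyond 2-fold.

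The level of a gene set how tight its interval was. Among the 2293 genes of at least 100 CPM, 98.8% of intervals lay within 1.5-fold and 90.4% within 0.32 on the log2 scale, and the median interval reached 1.09-fold to either side of its estimate. Among the 7806 genes of 10 to 100 CPM the shares were 96.6% and 78.1%, with a reach of 1.12-fold. Among the 3690 genes of 1 to 10 CPM they were 66.0% and 13.0%, with a reach of 1.26-fold. Of the 162 genes under 1 CPM, 29.6% lay within 1.5-fold and 0% within 0.32 on the log2 scale, so small changes of such genes were not detectable.

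**Figure D3:**
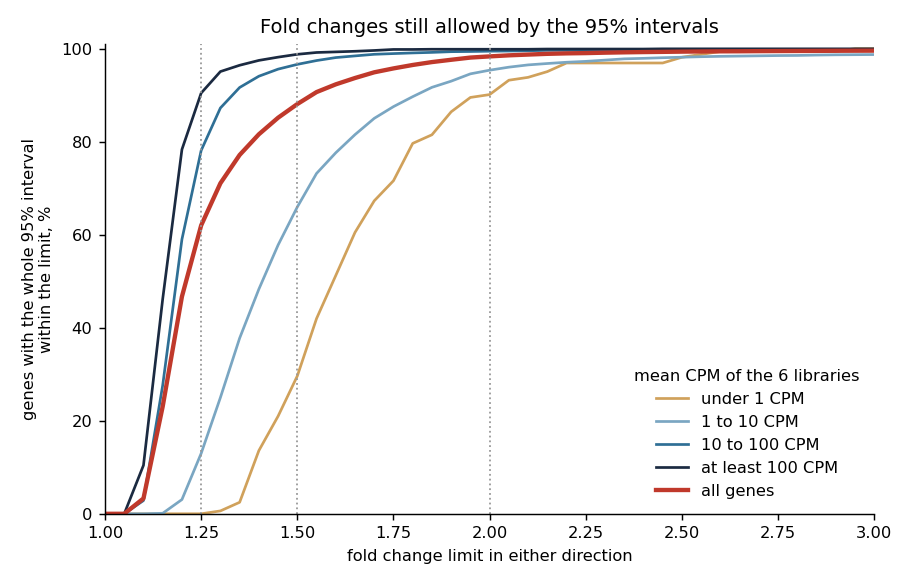
Share of genes (%) whose whole 95% interval of the fold change lies within a limit in either direction, against that limit, for HOXB13ko-LV-MEIS1 against HOXB13ko. Lines are genes by mean CPM of the 6 libraries and dotted lines mark 0.32, 0.58 and 1 on the log2 scale. At 1.5-fold the share runs from 29.6% for genes under 1 CPM to 98.8% for those of at least 100 CPM.

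The genes that differed in LV-MEIS1 against Control were then followed in the HOXB13ko lines. Cas9, the lentivirus and the separate making of those lines cannot be told apart from MEIS1 there. LV-MEIS1 against Control called 557 genes by treat (3.99%), and that comparison takes its means from other libraries than the one described here. Both come from 1 fit with the same SE for each gene, so the choice of the 557 genes also bears on their intervals here. In the HOXB13ko lines 485 of the 557 (87.1%) had a whole interval within 1.5-fold, near the 88.1% of all genes. The groups did not overlap for 57 of the 557 that were higher (10.2%) and 75 that were lower (13.5%). Over all genes these shares were 10.6% and 10.6%, that is 1472 and 1475. At an unadjusted eBayes p under 0.05, 34 were higher (6.10%) and 56 lower (10.1%), against 5.68% and 9.16% of all genes. MEIS1, SYT4, ALB and TENM2 are the 4 of the 557 that passed eBayes, ALB and TENM2 in the direction of LV-MEIS1 against Control and SYT4 in the opposite one.

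The interval limits were set against the size of the effect in LV-MEIS1. For each gene the end of the 95% interval that lies in the direction of that effect was taken. It was under 50% of the LV-MEIS1 effect for 544 of the 557 genes and under 25% for 412, on the log2 scale, with a median of 16.9%. The effects of these genes in LV-MEIS1 are inflated by their selection there, which lowers these percentages. Intervals without 0 were found for 46 genes in the same direction and for 44 in the opposite one. The difference of the MEIS1 effects passed treat for 409 genes in all (2.93%) and for 381 of the 557, a count that the same selection raises.

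Some genes with a large change in LV-MEIS1 against Control show the size of these limits. CNTN1, a neural adhesion protein, had 3.56, 3.84 and 3.64 CPM in HOXB13ko and 4.25, 4.23 and 4.51 CPM in HOXB13ko-LV-MEIS1. These did not overlap, and the interval of 0.9497- to 1.41-fold compares with a log2 fold change of 3.83 ± 0.13 (SE) in LV-MEIS1 against Control. GPER1, a membrane receptor for oestrogen, had 70.3, 70.6 and 65.3 CPM in HOXB13ko against 60.7, 67.8 and 66.6 CPM, an overlap, with an interval of 0.852- to 1.05-fold.

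In LV-MEIS1 against Control GPER1 had a log2 fold change of -4.19 ± 0.07 (SE). NMNAT2, an enzyme of NAD synthesis that protects axons, had 6.34, 6.96 and 6.94 CPM in HOXB13ko against 6.71, 5.42 and 7.41 CPM, again an overlap. Its interval of 0.764- to 1.21-fold stands beside a log2 fold change of -4.97 ± 0.16 in the other pair. The pairs did not all start from equal levels. The Control mean was 43.5 CPM for NMNAT2, 75.7 CPM for GPER1 and 0.592 CPM for CNTN1. The HOXB13ko means were 6.75, 68.7 and 3.68 CPM in the same order. For each of these 3 genes the difference of the effects passed treat.

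Genes that the study of MEIS1 follows had small estimates, and none of them passed eBayes. The interval of decorin (DCN), a small secreted proteoglycan, was 0.808- to 1.27-fold, and that of lumican (LUM), a related proteoglycan, was 0.856- to 1.18-fold. DCN had only 1.10, 0.947 and 0.899 CPM in HOXB13ko and 0.9305, 1.22 and 0.873 CPM in HOXB13ko-LV-MEIS1. LUM had 3.48, 3.18 and 4.21 CPM against 3.53, 3.77 and 3.59 CPM. Both overlapped between the groups, and at such levels the 0.5 added to CPM narrows the fold changes and intervals, most for DCN. MYC had 367, 347 and 343 CPM in HOXB13ko against 341, 398 and 395 CPM, with an interval of 0.969- to 1.18-fold. The interval was 0.920- to 1.11-fold for CDKN1A, which encodes the cyclin-dependent kinase inhibitor p21, and 0.785- to 0.989-fold for the receptor EGFR, with an adjusted p of 0.299 by eBayes. ITGB1, which encodes integrin beta 1, had 239, 235.1 and 261 CPM in HOXB13ko against 262, 270.4 and 266 CPM, higher without overlap (1.008- to 1.17-fold, adjusted p = 0.296), and its log2 fold change in LV-MEIS1 against Control was 0.45. TGFBR3, a co-receptor for TGF-beta, had an interval of 0.736- to 1.06-fold.

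**Figure D4:**
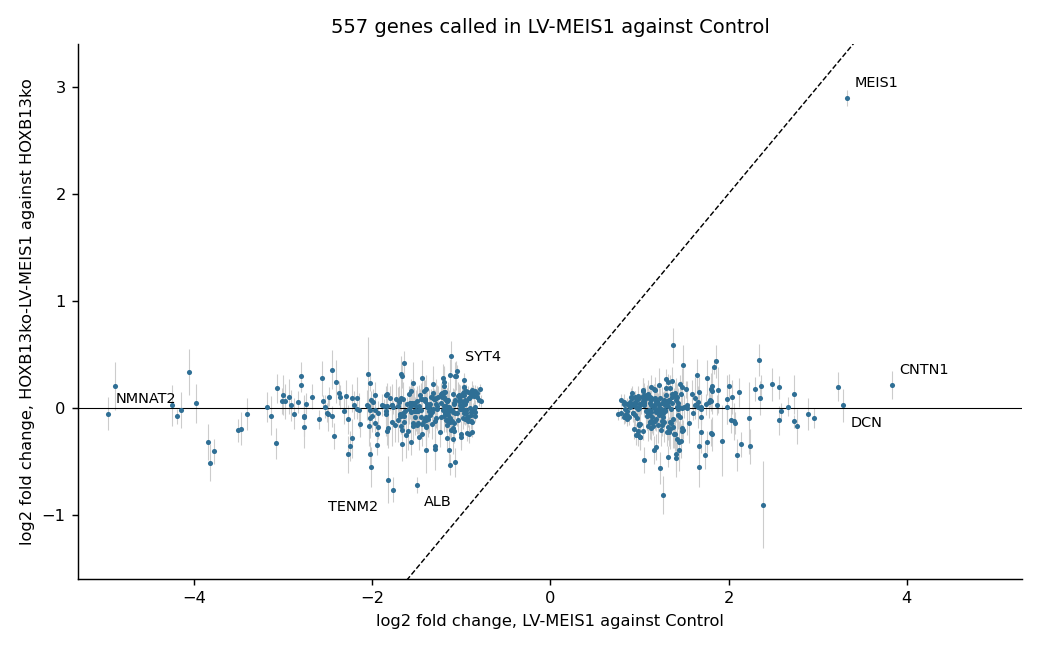
Log2 fold change in HOXB13ko-LV-MEIS1 against HOXB13ko (vertical, grey bars are the SE) against that in LV-MEIS1 against Control (horizontal) for the 557 genes called in the latter. The dashed line marks equal effects. Apart from MEIS1 at 2.90, points lie along 0 on the vertical axis, ALB and TENM2 below it and SYT4 above it.

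Small shifts shared by many genes were looked for in 44 gene lists, of which 42 had a listed member. Over all genes, the median log2 fold change was 0.01 and 51.9% were higher. Of all genes 10.6% were higher without overlap and 5.68% were higher at an unadjusted eBayes p under 0.05. Counts and medians of lists are descriptions beside these values. Genes of a list are not independent of each other, and none of the list members named below passed eBayes on its own unless said so.

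Genes of protein synthesis and energy supply lay slightly higher as groups. Of 84 cytosolic ribosomal protein genes 83 were higher, with a median log2 fold change of 0.10, and 16 did not overlap between groups. RPL24 had 498, 504 and 512 CPM in HOXB13ko and 533, 583 and 575 CPM in HOXB13ko-LV-MEIS1. The median deviation of the list in single libraries overlapped between the groups, since HOXB13ko replicate 1 (0.02) was above HOXB13ko-LV-MEIS1 replicate 1 (-0.01).

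Of 71 nuclear genes of the respiratory chain 63 were higher, with a median of 0.08, and 22 did not overlap, all higher. NDUFA12, a subunit of complex I, had 58.1, 59.5 and 54.7 CPM against 69.8, 68.4 and 67.1 CPM. For 78 mitochondrial ribosomal protein genes the median was 0.07 and 68 were higher. Proteasome genes had a median of 0.09, with 37 of 39 higher and 17 without overlap. PSMD8 had 123, 118 and 113 CPM against 130.02, 130.3 and 132 CPM. At an unadjusted eBayes p under 0.05, 3 proteasome genes (7.69%) and 7 mitochondrial ribosomal genes (8.97%) were higher, against 5.68% of all genes. That share was 14.1% for the respiratory chain and 13.1% for cytosolic ribosomal genes. In these lists 1 gene, a mitochondrial ribosomal one, was lower at that p.

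Cell cycle genes were mixed at the level of single members. Of 54 G2/M genes 46 were higher, with a median of 0.09, and 23 were higher and 1 lower without overlap. NDC80, a kinetochore protein, had 70.2, 69.3 and 72.7 CPM in HOXB13ko and 79.7, 83.2 and 78.9 CPM in HOXB13ko-LV-MEIS1, a log2 fold change of 0.19 ± 0.06 (SE). MKI67, the proliferation marker, lay the other way without overlap, with 726, 821 and 881 CPM against 672, 707 and 589.5 CPM (-0.30 ± 0.09). MKI67 has a transcript of 12716 nt, and CENPF and CKAP5, also lower members, have 10290 and 7172 nt, lengths at which most genes lay lower, as given with the length values. For the 43 S phase genes, 11 were higher and 1 lower without overlap. At an unadjusted eBayes p under 0.05, 3 S phase genes were higher (6.98%) and 1 lower. For G2/M genes 19 were higher (35.2%) and 2 lower at that p, and 5.68% of all genes were higher.

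Genes of protein folding and of glycolysis were also slightly higher. Of the 18 listed genes of the TMX and protein disulfide isomerase family, 16 were higher with a median of 0.10. TMX4, which passed eBayes, is among them. PDIA3, a disulfide isomerase of glycoprotein folding, had 871, 838 and 877 CPM in HOXB13ko and 924, 999 and 973 CPM in HOXB13ko-LV-MEIS1. Of 25 unfolded protein response genes 21 were higher, with a median of 0.08, and XBP1, a transcription factor of that response, had 188, 189 and 181 CPM against 209.9, 202 and 211 CPM.

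Of 30 listed genes of hypoxia and glycolysis 29 were higher, with a median of 0.11, and the library medians overlapped between groups. LDHA, lactate dehydrogenase A, had 531, 531 and 548 CPM in HOXB13ko and 602, 632 and 641 CPM in HOXB13ko-LV-MEIS1 (1.16-fold, 95% interval 1.08 to 1.26, limma eBayes adjusted p = 0.123). The ATF4 response list had a median of 0.07 with 28 of 31 higher, though only 2 were without overlap. Cholesterol synthesis genes had a median of 0.06 with 21 of 24 higher, for example INSIG1, a brake on that pathway, with 369, 358 and 351 CPM against 394, 401 and 402 CPM.

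Genes of the androgen response did not move one way. Of 33 listed androgen response genes 22 were higher, 5 higher and 2 lower without overlap. KLK3, which encodes prostate-specific antigen, had 139, 135 and 138 CPM in HOXB13ko and 122, 135 and 106 CPM in HOXB13ko-LV-MEIS1. KLK2, a related kallikrein, had 224, 238 and 228 CPM against 212, 219.8 and 179 CPM, lower without overlap.

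Extracellular matrix and surface receptor genes were uneven. Of 25 listed proteoglycan core protein genes 6 were higher and 2 lower without overlap. SPOCK1, a testican, had 253, 255 and 259 CPM in HOXB13ko and 285, 289 and 291 CPM in HOXB13ko-LV-MEIS1, and HSPG2, which encodes perlecan, had 2.55, 3.25 and 2.51 CPM against 1.77, 1.53 and 1.80 CPM. FN1, fibronectin, was at 14.6, 16 and 17.96 CPM against 11.7, 13.7 and 11.3 CPM (limma eBayes adjusted p = 0.104). Of 20 listed receptor tyrosine kinase genes and ligands 5 were lower and 0 higher without overlap, with a median of -0.07. That direction was lost when the trend of each library with length and GC content was removed, with a median of 0.01 and 50% of genes higher.

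Several groups lay lower. Of 391 long non-coding RNAs 292 were lower, with a median of -0.12, and 70 lower and 12 higher did not overlap. Of 469 zinc finger genes 305 were lower, with a median of -0.05, and 54 lower and 16 higher did not overlap. Of 29 listed genes of synaptotagmins and exocytosis 20 were lower, with a median of -0.07, and 6 lower and 1 higher did not overlap. SYT4, which passed eBayes, is the 1 that was higher. The median of that list was -0.02 with the trend of each library with length and GC content removed. In the list of teneurins, latrophilins and their partners 9 of 11 were lower, with a median of -0.12. Their transcripts are long (median 7820 nt), and the median was -0.02 with the trend of each library with length and GC content removed and 0.04 with level removed too. TENM1 had 8.87, 11.4 and 13.1 CPM in HOXB13ko against 7.25, 7.72 and 4.71 CPM, while FLRT3, a latrophilin ligand, lay higher with 1.71, 2.79 and 2.57 CPM against 3.87, 2.89 and 3.31 CPM.

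Other lists showed no shared direction or had few listed genes. Of 26 p53 target genes 13 were higher, of 27 HOX genes 13, and of 157 genes that the study prioritised 74, with medians of 0.00, -0.01 and -0.01. The study chose its 157 genes partly on the LV-MEIS1 and Control libraries, which enter this comparison only through the spread shared by the 12 libraries of the fit. For the HOX and prioritised lists and for interferon, p53 and mesenchymal genes, the sign of the median depended on how the libraries were scaled. Of the 8 listed genes of liver plasma proteins, of 37 in that list, 6 were lower, with a median of -0.21. HPX (hemopexin), ITIH4 and ALB, which passed eBayes, were lower without overlap, and CP (ceruloplasmin) was higher without overlap. At an unadjusted eBayes p under 0.05, 3 genes of this list were lower.

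Transcript length and level moved with these lists. By the length of the canonical transcript, the median log2 fold change ran from 0.06 for 882 genes under 1000 nt to -0.13 for 1198 genes over 8000 nt, of which 29.5% were lower without overlap. The median deviation of the longest class was -0.02, 0.08 and 0.14 in HOXB13ko and -0.01, -0.08 and -0.09 in HOXB13ko-LV-MEIS1, so the groups overlapped at replicate 1 of each. Within the Control group, where MEIS1 was not added, the deviation of that class from its group ran from -0.08 to 0.08.

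By level, the median ran from -0.16 for 162 genes up to 1 CPM and -0.09 for 2342 genes of 1 to 5 CPM to 0.07 for 447 genes over 300 CPM. Ribosomal protein genes have short transcripts (median 782 nt) and a high level (median 460 CPM), long non-coding RNAs have a low level (median 3.69 CPM), and 122 unprocessed pseudogenes had a median of -0.23. When the trend of each library with length, GC content and level was removed, the median was 0.00 for cytosolic ribosomal protein genes, 0.01 for the respiratory chain, 0.00 for the proteasome and 0.03 for G2/M genes. It was 0.05 for hypoxia and glycolysis, 0.06 for the TMX family, -0.09 for long non-coding RNAs and -0.04 for zinc finger genes. The part of length, level and RNA quality in the list medians was not tested further.

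**Figure D5:**
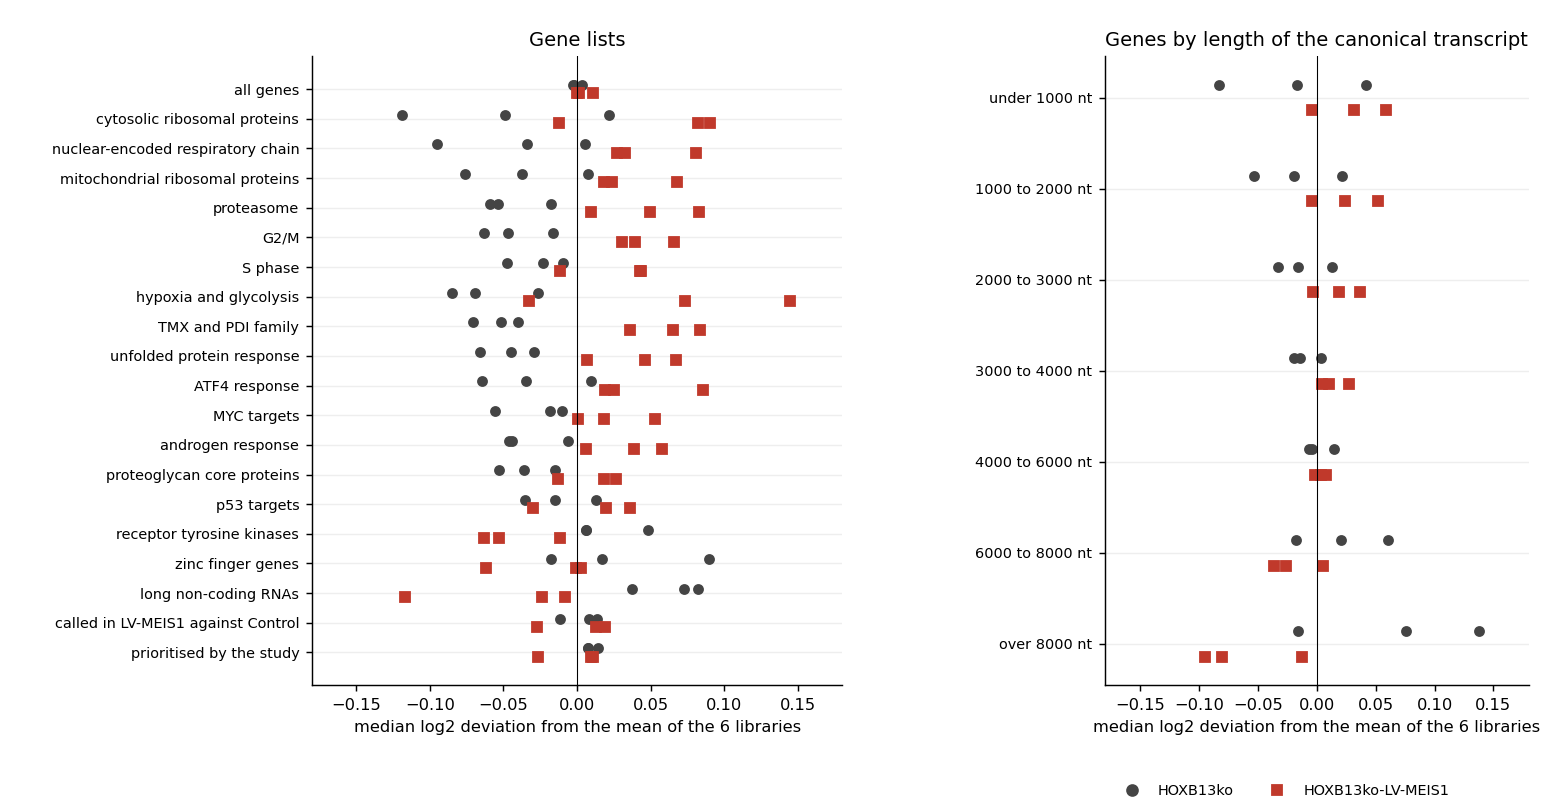
Median log2 deviation from the mean of the 6 libraries, 1 point per library, for gene lists (left) and for genes by length of the canonical transcript (right). Circles are HOXB13ko and squares HOXB13ko-LV-MEIS1. G2/M and proteasome squares lie to the right of all circles, long non-coding RNA squares to the left, and in the longest class HOXB13ko replicate 1 lies among the squares.

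The balance of higher and lower genes varied with the scaling and with trend removal. Of the genes at an unadjusted eBayes p under 0.05, 38.3% were higher with CPM as deposited. The share was 22.1% when the listed CPM were set to an equal sum, 42.3% with median-of-ratios scaling and 42.6% with quantile normalization. Most of these genes were thus lower under each scaling. With the trends with length and GC content removed 53.05% were higher, and 32.0% with level removed too. Of the genes without overlap, 49.9% were higher as deposited, 35.8% with an equal sum, 53.6% with median of ratios and 55.1% with quantile normalization. By chromosome, the medians of the 23 chromosomes ran only from -0.01 to 0.03, so no chromosome stood apart.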

How the data were processed

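RNA-seq was measured in 12 libraries. The deposited values are CPM, for which the authors trimmed reads with Trimmomatic 0.38, assigned them to GRCh38 transcripts with kallisto 0.43.1, summed estimated counts to genes, removed low genes and scaled libraries in edgeR 3.22.2 (versions from the methods and the submitters' processing notes). The counts are not used here, so limma's treat on log2(CPM + 0.5) took the place of the authors' count test. Low values lay near whole reads for 40.2% to 49.7% of cases (within 0.05 of a read), so reads were not recovered.

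One mean per group was fitted over 12 libraries in limma 3.58.1 (R 4.3.3) with a trended prior, p-values were Benjamini-Hochberg adjusted over 13951 genes, and the code was tested on simulated data. The difference of the MEIS1 effects was tested in the same fit. Positions, lengths and GC content came from GENCODE 44 (GRCh38), matched by symbol for 13657 genes (97.9%), 450 through an older symbol. Overlapping genes and near-identical copies share reads and are uncertain.

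Genes were named by rule: MEIS1 and HOXB13, all genes past eBayes or at an unadjusted treat p under 0.05, the 8 of at least 5 CPM with the largest change each way among those without overlap, a panel from the study, the strongest 5 each way in LV-MEIS1, and up to 3 members per direction of each list. Values of some genes that these rules name are not reported here. The members and lists were chosen with earlier results of these data known. Alternatives were other pseudocounts (0.1 and 1), a minimum of 1 CPM, scalings, thresholds, fits, trend removals and leaving out each library. Figures were drawn with matplotlib 3.10.9.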

Additional observations from a re-analysis of the deposited data

Results flagged for a closer look

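The MEIS1 effect in the HOXB13ko lines was set against that in LV-MEIS1 against Control by limma's treat test of the difference itself. It differed for 13 of the genes named by a rule other than list membership. Genes named only as list members are not counted here, and some of them passed too, such as NRP1 above. Differences are log2 fold changes, the HOXB13ko lines minus the other pair. Effects were more positive in the HOXB13ko lines for HBA2 (5.10), NMNAT2 (4.91), SEZ6 (4.275), CPLX2 (4.125), GPER1 (4.11), DDC (2.06) and SYT4 (1.38). Effects were more negative for CNTN1 (-3.62), C1QTNF3-AMACR (-3.53), DCN (-3.26), TMTC1 (-3.06), MCF2L (-3.03) and LUM (-1.49). NMNAT2, HBA2, SEZ6, GPER1, CPLX2, CNTN1, MCF2L, TMTC1 and DCN were named for their effect in LV-MEIS1 against Control, C1QTNF3-AMACR, SYT4 and DDC for their change in the HOXB13ko lines, and LUM, like DCN, is in the panel taken from the study. In each case 1 side of the difference took part in the choice, which raises its size. HBA2, SEZ6, CPLX2 and C1QTNF3-AMACR have a group near or below the value of 3 reads, so the size of their difference depends on the pseudocount. Starting levels were not equal in both pairs. Mean CPM in Control and in HOXB13ko was 43.5 and 6.75 for NMNAT2, 14.9 and 1.46 for HBA2 and 13.1 and 1.82 for SEZ6. It was 8.72 and 1.70 for CPLX2, 15.2 and 3.62 for LUM and 2.43 and 0.981 for DCN. GPER1 and MCF2L differed less, and CNTN1, TMTC1, DDC, SYT4 and C1QTNF3-AMACR had a higher mean in HOXB13ko. DDC and SYT4 were higher in the HOXB13ko lines and lower in LV-MEIS1 in all 3 libraries of each group.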

How the results depend on the processing

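Treat called 1 gene as reported and 2 with a pseudocount of 0.1, with a fit of the 6 libraries compared, with the replicate block in 12 or 6 libraries and with the length and GC trend removed, and 3 against a fold change of 1.2. eBayes called 7 genes as reported, 4 with the replicate block in 6 libraries, 15 with the length and GC trend removed, and 44 at an adjusted p under 0.1. Leaving out 1 library gave 3 to 6, with 4 without HOXB13ko replicate 2, 4 without HOXB13ko replicate 3 and 3 without HOXB13ko-LV-MEIS1 replicate 3. Treat then gave 1 each time. MEIS1, ALB and C1QTNF3-AMACR passed eBayes in 18 of 18 alternative settings, TMX4 in 15, TENM2 in 9 and SYT4 and AFAP1-AS1 in 7 each. Leaving out 1 library gave 3661 to 5204 genes without overlap, since fewer libraries overlap less often, and 83.8% to 87.4% of intervals within 1.5-fold.

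The G2/M median was 0.0727 with an equal sum and 0.0313 with the trend with length, GC and level removed. That removal gave 0.00425 for cytosolic ribosomal, 0.00666 for respiratory chain and 0.00278 for proteasome genes, and quantile normalization gave -0.0461 for long non-coding RNAs. With each library left out these medians were 0.08 to 0.11, 0.06 to 0.13, 0.05 to 0.11, 0.07 to 0.11 and -0.13 to -0.08 in the same order, with 0.07 to 0.15 for hypoxia and -0.07 to -0.02 for zinc finger genes. Same-numbered libraries of the groups did not deviate together (correlations of -0.23, -0.07 and -0.25), and differently numbered ones ran from -0.02 to 0.25. Trends of each library with length enter these correlations, so they do not show whether the numbers pair samples. The replicate block in 12 libraries called 5 genes by eBayes.

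Signs turned for 7 genes with log2 changes near 0, none of them called. With an equal sum LUM was -0.0094 and CDKN1A -0.0089. With quantile normalization CDKN1A was -0.0052 and CPLX2 0.0899. With the length and GC trend removed LUM was -0.0316. With level removed too LUM was -0.0071, CDKN1A -0.0512, TMTC1 0.0034, NMNAT2 0.0026 and CPLX2 0.0858. Over the fits that left out 1 library, the log2 fold change ran from -0.0687 to 0.11 for LUM, from -0.0186 to 0.0424 for CDKN1A, from -0.0777 to 0.0858 for DCN, from -0.149 to 0.0607 for NMNAT2, from -0.162 to 0.187 for SEZ6 and from -0.196 to 0.111 for CPLX2. The causes were not tested. The fits of 6 libraries give no test of the difference of the MEIS1 effects. Depth and 3 libraries a group limit genes under 10 CPM, and HOXB13 mRNA does not show the state of the protein.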

Other observations

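Some genes varied strongly between libraries of 1 group and were noticed after their values were seen. LPAR4, a receptor for lysophosphatidic acid, had 3850, 2331 and 3104 CPM in HOXB13ko and 5.295, 5304 and 154 CPM in HOXB13ko-LV-MEIS1. Control had 4762, 22.1 and 6697 CPM, so the gene switched between high and low values within groups, and its log2 fold change of -4.17 ± 2.06 (SE) did not pass limma's eBayes (adjusted p = 0.361). Of the 25 genes of at least 5 CPM with the largest spread within groups, 8 lie on chromosome 6 in a stretch around the major histocompatibility complex that holds 75 of the 11447 genes at that level (GRCh38, from 28570535 to 33457544). They include RING1, TRIM26, DAXX, SKIV2L, FKBPL and PBX2. TRIM26 had 28.7, 29.6 and 32.1 CPM in HOXB13ko and 31.2, 4.34 and 0.622 CPM in HOXB13ko-LV-MEIS1, and RING1 had 2.03, 2.52 and 14.7 CPM against 47.0, 64.5 and 12.4 CPM. The median SD within groups was 0.085 on the log2 scale over genes at that level, against 0.741 for PBX2 to 3.49 for LPAR4 among the genes named here.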
